A study of Mus musculus with 2 samples.

Results

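The genes described here are 6 transcription factor genes of the meninges and the dorsal midline of the forebrain: Zic1, Twist1, Twist2, Foxc1, Foxc2 and Foxj1. They were chosen by gene symbol, as every probe set that the platform annotation gives to 1 of these genes alone, and all 6 were on the array with 7 probe sets, out of 8251 genes measured. The tissue was cerebral cortex, taken at E14.5 from mouse embryos of the NMRI strain that were either wild type or Pax6-/-, that is, homozygous for a mutation of Pax6. Biotin-labelled cRNA from 6 µg of total RNA was hybridised to 1 Affymetrix array per genotype. RNA of 3 wild type and 3 mutant embryos was isolated according to the design text; whether it was pooled and which Pax6 allele was carried are not stated in the labels. The labels name no Cre or other restriction of the mutation to the cortex. With 1 array per genotype, differences have no replicate check, and p-values cannot be formed.

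The meninges are the mesenchymal sheets that cover the brain, and the dorsal midline of the telencephalon forms the cortical hem, a signalling centre, and the choroid plexus, which makes cerebrospinal fluid. Foxc1 and Foxc2 encode forkhead factors of the mesenchyme from which meningeal and vessel wall cells arise, and Foxc1 is needed for the meninges to form over the cortex. Twist1 and Twist2 encode closely related basic helix-loop-helix factors that hold mesenchymal cells in an undifferentiated state and bind E-boxes with E-protein partners such as Tcf3, Tcf4 and Tcf12. Zic1 encodes a zinc finger factor of the dorsal midline, and is known from meningeal cells too. Foxj1 encodes the forkhead factor that switches on the genes of motile cilia, as on the choroid plexus and the ependyma. Twist1, Twist2, Foxc1 and Foxc2 are treated below as the meningeal members, and Zic1 and Foxj1 as the midline members.

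Values are MAS5 signals, the linear intensities that the Affymetrix software summarises from the probes of a probe set. Signals of different probe sets were set against each other only by percentile, filter, signal group and choice of the brightest probe set. Marker signals were also summed within each array, and bright probe sets weigh most in such sums. Ratios are mutant over wild type on the scale log2(signal + 81.5), centred on the median, a scale on which the difference of a dim gene comes out smaller than it is. The filter level lay at a signal of about 166, applied to the mean of both arrays. Across 5586 genes above it, 5.17% were at least 2-fold higher in the mutant and 5.62% at least 2-fold lower, with a median log2 ratio of −0.02. A technical spread, the variation between probe sets of the same gene, stood in for an error. It was 0.69 (SD, log2) below the filter. With the genes above the filter split into 3 equal groups by signal, it was 0.78 in the dim group, 0.55 in the middle group and 0.38 in the bright group. Variation between embryos is not part of it. Pax6 itself had signals of 1169 and 447, a log2 ratio of −1.29; where its probe set lies relative to the mutation is not known here.

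Zic1 and Twist2 were the members that lay past 2-fold, both higher in the mutant. They are 2 of the 4 members above the filter, where 5.17% of all genes were at least 2-fold higher. They are 2 of all 6 members, and with no filter 510 of 8251 genes were at least 2-fold higher. Twist1, the paralogue of Twist2, and Foxj1 lay on the opposite side, Twist1 with dim signals on both arrays and Foxj1 with a smaller difference. Foxc2 was higher by 1 of its 2 probe sets, and Foxc1 gave almost no signal. Of the 6 members, 4 passed the filter (Zic1, Twist2, Foxc2 and Foxj1), and Foxc2 did so only through its mutant signal.

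**Figure D1:**
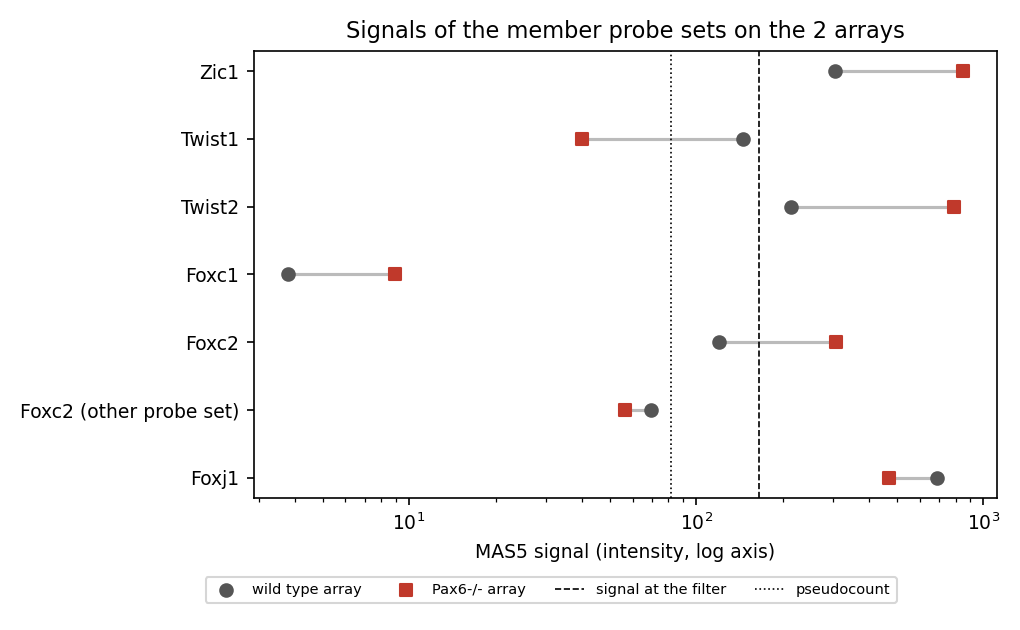
MAS5 signals (log axis) of the 7 member probe sets on the wild type array (circles) and the Pax6-/- array (squares), with the pseudocount of 81.5 and the filter level of about 166 as vertical lines. Zic1 and Twist2 lie to the right of the filter on both arrays and are higher in the mutant, whereas Twist1, Foxc1 and the other Foxc2 probe set lie left of it on both.

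Zic1, among the midline members, had a wild type signal of 304 and a mutant signal of 847, a ratio of 2.79 between the signals. Both signals were above the filter level, at the 56.3th percentile of all probe sets in wild type and the 80.7th in the mutant. On the scale with the pseudocount Zic1 was 2.34-fold higher, with a log2 ratio of 1.22; the technical spread at its signal level was 0.55. It ranked 169th from the top among 5586 genes. In the middle group of genes by signal, where Zic1 lay, 2.69% were at least 2-fold higher. This group was set by the mean of both arrays, so the higher mutant signal helped to place Zic1 there. The wild type signal alone lay in the range of the dim group, 166 to 386. In that group the spread was 0.78 and 12.1% were at least 2-fold higher. The log2 ratio of Zic1 ran from 0.94 to 1.43 over 8 alternative processings and was past 2-fold in 7 of them, the exception being the larger pseudocount. Not all of these are checks. For Zic1 and any other member with 1 probe set, averaging probe sets and leaving out those with a suffix repeat the reported value. Leaving out the filter or the centring only shifts all ratios by a constant.

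Zic2 and Zic4, relatives of Zic1 on the array, did not share a direction. Zic2, a paralogue linked to forebrain midline formation, had a wild type signal of 143 and a mutant signal of 252 by its brighter probe set, giving a log2 ratio of 0.53 where the technical spread was 0.78. Its other probe set had signals of 15.6 and 29.8, far below the filter on both arrays, with a log2 ratio of 0.15. Zic4, which RefSeq places beside Zic1 on chromosome 9 on the opposite strand, had signals of 118 and 43.1. That is a log2 ratio of −0.72, at about the technical spread of 0.69 for genes below the filter, and it ran from −0.36 with the larger pseudocount to −1.50 with none.

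Foxj1, also a midline member, had a wild type signal of 691 and a mutant signal of 468, both well above the filter level. It was 1.45-fold lower, a log2 ratio of −0.54, no larger in size than the technical spread of 0.55. Other processing choices gave log2 ratios between −0.61 and −0.42, with the same sign in 8 of 8, those that repeat the reported value included, and past 2-fold in 0. The midline members therefore lay on opposite sides, with Zic1 above Foxj1 by 1.76 on the log2 scale, and their median of 0.34 describes neither.

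Twist2 showed the largest difference of the 6 members. The wild type signal was 213 and the mutant signal 791, which is 3.71 times as high, and both were above the filter level. With the pseudocount the fold was 2.87, or 1.52 as a log2 ratio, where the technical spread was 0.55, and Twist2 ranked 83rd from the top among 5586 genes. As for Zic1, the wild type signal alone lay in the range of the dim group. The spread there was 0.78, and 12.1% were at least 2-fold higher. Twist2 stayed past 2-fold in 8 of 8 alternatives, those that repeat the reported value included, with log2 ratios between 1.12 and 1.84.

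Twist1 went the other way. It had a wild type signal of 146 and a mutant signal of 39.9, both below the filter level, and the mutant signal was also below the pseudocount. The wild type signal was 3.66 times the mutant signal, but the fold with the pseudocount was 1.93, or −0.95 as a log2 ratio, where the technical spread was 0.69. This ratio depended on the pseudocount more than that of any other member: it was −0.47 with the larger pseudocount and −1.92 with none, and past 2-fold in 3 of 8 alternatives. Among genes below the filter, 5.93% were at least 2-fold lower. Each gene was measured by 1 probe set, so neither ratio has a second reading on these arrays.

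The start regions of Zic1, Twist1 and Twist2 are shown because these 3 genes had the largest differences and the Twist pair had opposite signs. Each is the 250 bases upstream of the RefSeq start site (build GRCm38.p6), 5′ to 3′ on the gene's own strand. Capitals mark matches, on either strand, to any of 5 motifs. These are the E-box CANNTG, which Twist factors bind; the CCAAT box, spelled CCAAT; the TATA box, spelled TATAAA; the core bound by many homeodomains, spelled TAATTA; and a core of the motif of the Pax6 paired domain, spelled TTCACGC.
Zic1, chr9:91365769-91366018, minus strand: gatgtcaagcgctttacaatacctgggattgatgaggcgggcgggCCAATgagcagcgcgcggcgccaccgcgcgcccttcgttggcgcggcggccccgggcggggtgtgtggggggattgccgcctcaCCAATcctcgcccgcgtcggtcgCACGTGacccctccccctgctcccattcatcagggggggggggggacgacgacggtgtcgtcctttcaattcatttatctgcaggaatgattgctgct
Twist1, chr12:33957421-33957670, plus strand: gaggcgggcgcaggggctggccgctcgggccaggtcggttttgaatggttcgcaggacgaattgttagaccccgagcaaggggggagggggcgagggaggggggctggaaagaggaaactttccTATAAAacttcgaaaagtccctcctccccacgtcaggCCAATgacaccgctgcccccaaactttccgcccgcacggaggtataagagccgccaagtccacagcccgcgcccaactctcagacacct
Twist2, chr1:91801211-91801460, plus strand: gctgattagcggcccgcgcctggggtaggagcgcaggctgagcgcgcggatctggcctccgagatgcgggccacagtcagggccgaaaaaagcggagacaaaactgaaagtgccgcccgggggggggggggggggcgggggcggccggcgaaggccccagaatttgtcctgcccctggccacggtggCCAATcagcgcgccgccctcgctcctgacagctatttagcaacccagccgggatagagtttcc
The CCAAT box was found in all 3 windows, starting 205 and 121 bases upstream of the start site in Zic1, 89 in Twist1 and 63 in Twist2; 33.8% of 32851 RefSeq windows of the same length hold it. Zic1 alone of the 3 held an E-box, the palindrome CACGTG at 98 bases upstream, a class that 66.2% of all windows hold. Twist1 alone held TATAAA, at 126 bases upstream, against 12.4% of all windows. No match overlapped another. The homeodomain core, which 4.84% of all windows hold, and the paired domain core, which 1.03% hold, were not in these 3 windows. The GC content was 66.0% for Zic1, 62.4% for Twist1 and 68.8% for Twist2. Of the 6 members, 4 had a window in the RefSeq table; the other, Foxc1, held CCAAT on the reverse strand at 101 bases upstream.

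Foxc2, a forkhead factor of paraxial and vessel-forming mesenchyme, was read by 2 probe sets that went opposite ways. By the brighter probe set the wild type signal was 120, below the filter level, and the mutant signal 308. That gave a log2 ratio of 0.90, or 1.87-fold. The technical spread was 0.78 in the dim group of genes, where 12.1% were at least 2-fold higher. The other probe set, of a type whose probes Affymetrix marks as shared within a family, had signals of 69.8 and 56.3 and a log2 ratio of −0.18. Both of its signals were below the pseudocount. The mean of both probe sets was 0.36, and over the alternatives the Foxc2 ratio ran up to 1.30 without a pseudocount.

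Foxc1, the factor most tied to formation of the meninges, had signals of 3.78 and 8.93. The share of probe sets that were dimmer was 0.50% for the wild type signal and 0.69% for the mutant signal. The mutant signal was 2.36 times the wild type signal, yet on the scale with the pseudocount the log2 ratio was 0.04, and its sign turned in 2 of 8 alternatives. A difference in Foxc1 was not detectable at this signal.

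**Figure D2:**
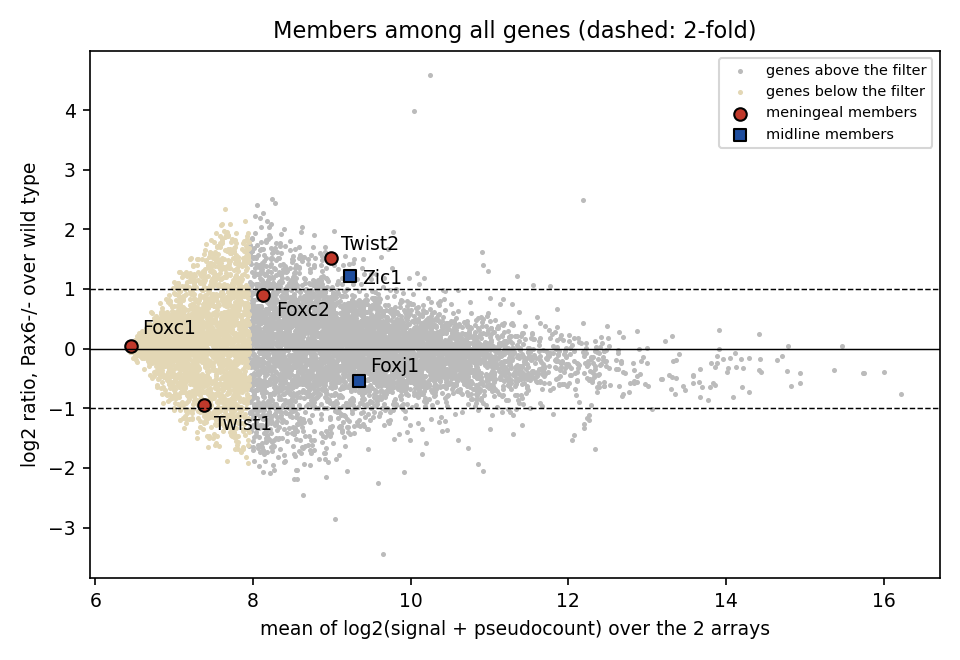
Log2 ratio (Pax6-/- over wild type) against the mean log2(signal + pseudocount) over the 2 arrays for all 8251 genes, with the meningeal members as circles and the midline members as squares. Twist2 at 1.52 and Zic1 at 1.22 lie above the dashed 2-fold line, and Foxc1 sits at the left edge, where ratios are pressed to 0 by the pseudocount.

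Set against each other, the ratios of the meningeal and the midline members overlapped. The 4 meningeal members had log2 ratios from −0.95 to 1.52 with a median of 0.47, and the midline pair had −0.54 and 1.22 with a median of 0.34. The medians differed by 0.13, which was not tested. Each class had 1 member past 2-fold higher (Twist2 and Zic1) and 1 lower member (Twist1 and Foxj1). Without a pseudocount the difference was 0.37. With the mean of the Foxc2 probe sets it turned to −0.14, and with the other Foxc2 probe set to −0.41. Counting Zic1 as meningeal, since it is known from those cells too, gave a difference of 1.44, against Foxj1 alone.

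**Figure D3:**
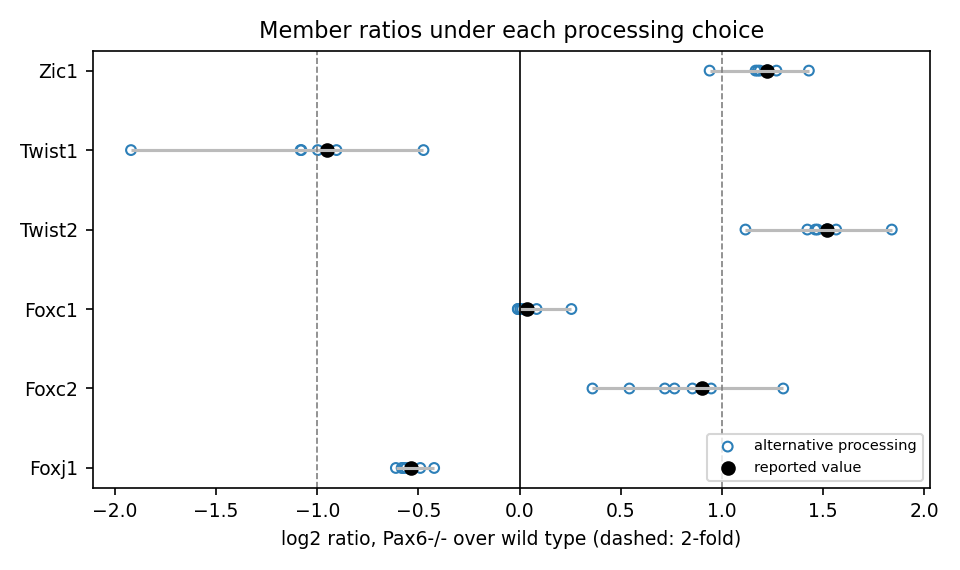
Log2 ratios (Pax6-/- over wild type) of the 6 members as reported (filled) and under 8 alternative processings each (open), with dashed lines at 2-fold. Some alternatives repeat the reported value of members with 1 probe set. Twist2 stays right of the 2-fold line throughout, Zic1 crosses it in 1 alternative, and Twist1 spreads from −1.92 to −0.47.

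Other genes of meningeal and mesenchymal cells, with the members left out, showed no common direction. Of 50 listed genes 42 were on the array and 21 passed the filter, of which 12 were higher and 9 lower, or 57.1% higher against 48.4% of all genes above the filter. Their median was 0.21, and 0.07 after loess scaling. Of the 21, 1 was past 2-fold on the higher side and 3 on the lower side. The shares among all genes above the filter were 5.17% (higher) and 5.62% (lower). The higher gene was Slc6a13, a transporter of GABA and taurine in the leptomeninges, with signals of 161 and 629, or 2.83-fold. Its wild type signal lay below the filter level, so it passed only through the mutant array. The lower ones were Crabp2, a retinoic acid binding protein gene, at −1.17, Pdgfra, a growth factor receptor gene of mesenchymal and glial precursors, at −1.08, and Igf2, a growth factor gene, at −1.04. Crabp2 and Pdgfra passed the filter only through the wild type array, with mutant signals of 91.3 and 93.3. Of the other Pdgfra probe sets, 1 had the same sign, at −0.76, and 1 the opposite, at 0.72. The other Igf2 probe set was at 0.39. Over all 42 on the array, 2 were past 2-fold on the higher side and 5 on the lower side. With no filter, these numbers were 510 and 538 among 8251 genes. Collagen genes of fibroblasts differed little: Col1a2 had signals of 1828 and 2436, a log2 ratio of 0.35, and Col3a1 308 and 239, a ratio of −0.33. The summed signal of the 10 defining meningeal markers on the array was 5980 (wild type) and 6138 (mutant). None was at 0, but Foxd1, Aldh1a2, Dcn, Ogn and Lum lay below the filter level on both arrays. Part of that sum is Fbln1, a matrix protein gene with signals of 2497 and 1931, at −0.40 by its brightest probe set but at 0.81, 0.38 and 0.19 by the other 3. Without Fbln1, a choice that was not planned, the sum was 3483 (wild type) and 4208 (mutant). Of the 9 remaining markers 6 were higher and 3 lower, where 51.9% of all genes with no filter were higher. The largest difference among them was that of Lum, which was lower, with signals of 165 and 39.1 and a log2 ratio of −1.08. Among the higher markers, Aldh1a2, Dcn and Ogn had signals below the pseudocount on both arrays. These markers stood beside the higher Twist2 and Zic1, and their part in those ratios was not tested. In whole tissue, fewer cells of a type and less RNA per cell cannot be told apart.

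In the list of hem and choroid plexus genes, few were measured above the filter and most of those were higher. Of 37 listed 22 were on the array and 9 passed the filter. Of these, 6 were higher and 3 lower, with a median of 0.49, where 48.4% of all genes above the filter were higher. At least 2-fold higher were 4 of the 9, where all genes above the filter had 5.17% and those of the dim group, where these 4 lay, 12.1%: the Wnt modulator Dkk3 at a log2 ratio of 1.68, the water channel Aqp1 at 1.55, the Wnt feedback target Axin2 at 2.83-fold, with signals of 129 and 532, and the tight junction gene Cldn1 at a log2 ratio of 1.02. Each of these 4 had a wild type signal below the filter level, between 60.8 and 129, and so passed the filter only through the mutant array. The other Aqp1 probe set was at −0.76 and that of Cldn1 at 0.08. With the 60th percentile filter 4 genes of the list were left, with a median of −0.09. Over all 22 on the array, 15 were higher and 7 lower, where 51.9% of all genes with no filter were higher. Of these 22, 6 were at least 2-fold higher, against 510 of 8251 genes with no filter. Of the 4 defining markers on the array, 1 was higher and 3 lower, and only Ttr passed the filter. Ttr, the transthyretin gene of the choroid plexus, had signals of 384 and 349, a log2 ratio of −0.16. Wnt3a, which marks the hem, had 46.6 and 52.6. Wnt3a, Wnt2b and Folr1 lay below the filter level on both arrays. The summed signal of the 4 defining markers on the array was 607 (wild type) and 549 (mutant).

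In the list of cilia genes, not all of them particular to the motile cilia program that Foxj1 drives, 8 passed the filter. Of these, 6 were lower, where 51.6% of all genes were lower, with a median of −0.33. Of these 6, Ift88 at −0.06 and Cetn3 at −0.23 had another probe set of the opposite sign, at 1.12 and 0.61. Ift172, an intraflagellar transport gene, was lower by the most, with signals of 580 and 165 and a log2 ratio of −1.47. Tekt2, a tektin of the axoneme, had signals of 339 and 145, a ratio of −0.93, and Rsph1, a radial spoke gene, 1346 and 1646, a ratio of 0.23. Tubb4b, a beta-tubulin gene of the axoneme, lay just past 2-fold higher, with signals of 154 and 404. It passed the filter only through the mutant array, and Ift172 and Tekt2 only through the wild type array. Tuba1a, an alpha-tubulin gene of neurons, was at −0.76 and −0.39 by its 2 probe sets. Several of these genes also serve primary cilia or the neuronal cytoskeleton. The list median ran from −0.43 to −0.12 over the alternatives. Over all 14 genes of the list on the array, 10 were lower and 4 higher, where 48.1% of all genes with no filter were lower. Below the filter, Tekt1 and Stk36 were higher, at 1.04 and 0.78. Rfx1, Lrrc6, Cetn2 and Rfx2, also below it, were lower, at −0.96, −0.69, −0.37 and −0.25.

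Vascular and pericyte genes, a further place where Foxc factors are known, were higher in 7 of the 10 above the filter, where 48.4% of all genes were higher, with a median of 0.43. The median was 0.13 with probe sets of a gene averaged and 0.19 after quantile scaling. Of these 7, Flt4 at 0.16 and Sox18 at 0.59 had another probe set at −0.58 and −0.73. Cd34, a gene of endothelial and progenitor cells, was at 1.34 and its other probe set at 1.60, and the tight junction gene Cldn5 was at 1.06. The wild type signal of Cd34, 131, was below the filter level, so that it passed through the mutant array, and that of Cldn5 was 175. Flt1, a VEGF receptor gene, was at 0.78 and 0.74 by its 2 probe sets, and Eng, a TGF-beta co-receptor gene, at −0.96. The main VEGF receptor gene Kdr had signals of 308 and 320. The summed signal of the 5 defining vascular markers was 756 (wild type) and 1154 (mutant), with most of the difference from Cldn5. Of these 5 markers 3 were higher and 2 lower, where 51.9% of all genes with no filter were higher. Only Kdr and Cldn5 passed the filter. The summed signal was higher, as were Zic1, Twist2 and the brighter Foxc2 probe set, and its part in their ratios was not tested. With the 60th percentile filter 3 vascular genes were left, with a median of −0.53.

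**Figure D4:**
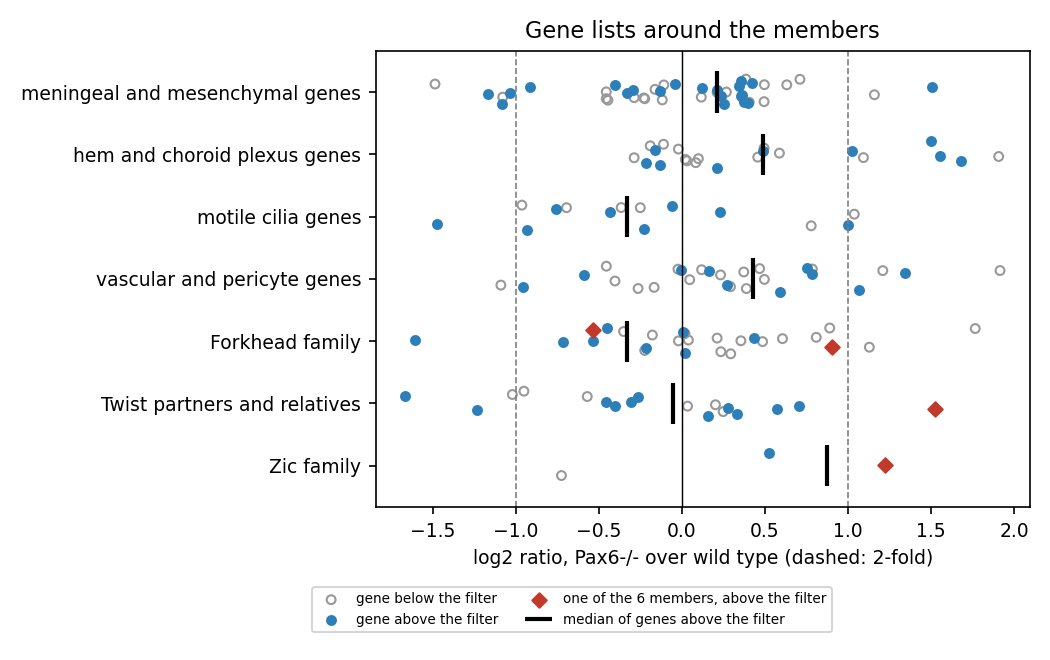
Log2 ratios (Pax6-/- over wild type) of the genes in 7 lists around the members, filled above the signal filter and open below it, with diamonds for members above the filter and bars at the median of the genes above it. The meningeal list, which leaves the members out, centres near 0.21 with genes on both sides of 0. Twist2 lies at the right end of the list of Twist partners and relatives. Zic1 lies at that of the Zic family, which has only 3 genes on the array.

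Among the relatives and partners of the Twist factors, 12 of 18 on the array passed the filter. Of these, 6 were higher and 6 lower, where 48.4% of all genes above the filter were higher. Their median of −0.05 turned to 0.02 after loess and after quantile scaling. Tcf3, an E-protein that pairs with Twist factors, had signals of 345 and 637, a log2 ratio of 0.71, whereas the E-protein genes Tcf4 and Tcf12 were at −0.31 and 0.16. Id4, an inhibitor of such pairs, was 3.17-fold lower, from 2881 to 884. Snai2 (Slug), a transcriptional repressor that promotes the epithelial-to-mesenchymal transition, was 2.35-fold lower, from 436 to 146. The mutant signal of Snai2 lay below the filter level, so it passed only through the wild type array. Twist2 was the only gene of this list at least 2-fold higher.

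In the forkhead family, 26 of 41 genes were on the array and 10 passed the filter. Of these 10, 4 were higher and 6 lower, with a median of −0.33, where 48.4% of all genes above the filter were higher. Over all 26, 16 were higher and 10 lower, with a median of 0.03, where 51.9% of all genes with no filter were higher. Foxc2 was the highest of the 10, and the lowest was Foxk2, with signals of 659 and 169 and a log2 ratio of −1.61, although its other probe set was at 0.06. Foxl1, a mesenchymal forkhead gene, was at −0.72. Foxj1 at −0.54 lay beside Foxp1, which was at −0.53 and −0.54 by its 2 probe sets. The remaining forkhead genes above the filter lay between −0.45 and 0.44.

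By ratio alone, the genes nearest to each member among 78 candidates from the fixed lists were, for Twist2, Slc6a13 and Axin2, which differed from it by 0.02 each in log2 ratio. For Zic1 they were Cd34 and Cldn5, at 0.12 and 0.16. For Foxc2 they were Tubb4b and Cldn1, at 0.10 and 0.12, and for Foxj1 they were Foxp1 and Notch3, at 0.00 and 0.05. This likeness rests on 2 arrays, that is, on 1 difference per gene. Slc6a13, Axin2, Cd34, Tubb4b and Cldn1 passed the filter only through the mutant array, as did Foxc2.

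The labelled tissue was checked by its defining genes, of which 2 of 6 were on the array. Tbr1, a factor of early cortical neurons, had signals of 5088 and 2405, and Neurod6, a factor of cortical projection neurons, 947 and 471. Both were well above the filter on both arrays and were lower in the mutant, with log2 ratios of −1.10 and −0.94. In the wider list of cortical progenitor and neuron genes, 9 of 11 were lower, with a median of −0.98, where 51.6% of all genes above the filter were lower. Pax6 itself, the mutated gene, counts among these 9, at −1.29. Also lower were Eomes, which marks intermediate progenitors, at −3.44, and the proneural genes Neurog2 at −1.94 and Neurod1 at −1.43. The progenitor factor Sox2 was higher at 1.06. The other Eomes probe set was at −1.39. These lower genes stood beside the higher Zic1 and Twist2, and their part in the members' ratios was not tested.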

How the data were processed

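Per the labels' protocols, biotinylated cRNA was hybridised to Affymetrix arrays, and the submitters' processing notes name MAS5; for its version, scaling target and detection calls nothing is given in the sources used here. What the authors deposited is a linear signal intensity for each probe set on each array; both arrays had a 2% trimmed mean of 500.2, with medians of 237.3 (wild type) and 283.7 (mutant).

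Of 12488 probe sets, 10855 had 1 gene symbol in GEO's platform annotation, 396 several and 1237 none; 10839 matched the RefSeq gene table (GRCm38.p6) by gene ID. The brightest probe set by mean signal, controls left out, stood for a gene. The pseudocount, 81.5, was the 25th percentile of all signals, the filter the 40th percentile of mean log2 value, and centring removed a shift of 0.05. Genes were called at 2-fold, with no test. For the technical spread, the log2 ratios of a gene's 2 brightest probe sets were subtracted and the SD of this difference divided by the square root of 2 (894 genes above the filter, 488 below).

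The members and the 10 gene lists were chosen with earlier results of these data known. The genes named are the members, Pax6, the Zic genes, defining markers, and the 2 list genes nearest in ratio to each member. Also named are list genes above the filter at least 2-fold apart and the 4 largest ratios of each list. Rsph1, Tcf4, Tcf12, Ift88, Cetn3, Tekt1, Stk36, Rfx1, Lrrc6, Cetn2, Rfx2, Flt4 and Sox18 were named after their values were seen. Steps were tested on simulated arrays. Python 3.11.15 was used with statsmodels 0.14.6 for loess, matplotlib 3.10.9 for plots, and scipy 1.17.1, pandas 2.3.3 and numpy 2.4.6.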

Additional observations from a re-analysis of the deposited data

How the results depend on the processing

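Of 72 recomputed ratios of single genes, 70 stayed within the technical spread of the value reported. The others were Twist1 at −1.92 and Zic4 at −1.50, both without a pseudocount. Some of the 72 could not move, since averaging probe sets and leaving out those with a suffix repeat the value of a gene with 1 probe set. List medians were compared by a narrower measure, the technical spread divided by the square root of the number of genes, and 18 of 99 moved further. The counts of genes at least 2-fold higher and lower, 289 and 314, became 791 and 853 at 1.5-fold, 60 and 70 at 3-fold, 92 and 128 with the 50th percentile pseudocount, 99 and 116 with the 60th percentile filter, 510 and 538 with no filter, and 452 higher without a pseudocount. With the 60th percentile filter the median was −0.088 for hem and choroid plexus genes (4 left), −0.53 for vascular genes (3 left) and 1.28 for the Zic genes (Zic1 alone). With no filter it was 0.11 for hem, 0.22 for vascular, 0.072 for meningeal and −0.018 for forkhead genes. Averaging the probe sets of a gene gave 0.13 for vascular, 0.048 for meningeal, −0.12 for cilia and 0.14 for Twist-related genes and −0.14 for the meningeal minus midline difference. Loess gave 0.075 for meningeal genes, quantile scaling 0.19 for vascular genes, the 50th percentile pseudocount 0.29 for hem genes, and probe sets without a suffix −0.26 for Twist-related genes. Without a pseudocount the median of the meningeal members was 0.78 and the difference 0.37. The choices that follow were added after seeing the data. With members above the filter only, which keeps genes that passed through the array where they were high, the meningeal median was 1.21 and the difference 0.87; without Foxc1 they were 0.90 and 0.56. With Zic1 counted as meningeal, the meningeal median was 0.90, the midline median −0.54, Foxj1 alone, and the difference 1.44. The other Foxc2 probe set gave −0.18 for Foxc2, −0.071 for the median and −0.41 for the difference. No paired analysis was possible because each genotype has 1 array. Signals below the filter on both arrays limit Foxc1, Twist1, Zic4 and the dimmer Foxc2 and Zic2 probe sets; detection calls were not used here.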
